A study of Mus musculus with 12 samples.

Results

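The 10 most used *Trbv* segments were followed through the PD-1+CD44+CD8+ T cells of lupus-prone NZB/W F1 mice. *Trbv* genes encode the variable part of the T cell receptor beta chain. The 10 segments (*Trbv13-1*, *Trbv13-2*, *Trbv1*, *Trbv4*, *Trbv31*, *Trbv14*, *Trbv5*, *Trbv20*, *Trbv2* and *Trbv29*) were chosen by their share of all *Trbv* UMIs in these same libraries, out of 27 *Trbv* segments and 18992 genes in the tables. A UMI marks 1 captured RNA molecule. The shares that chose the segments are therefore given as a description, with no test.

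The cells came from 3 pooled libraries of female NZB/W F1 mice, which develop a lupus-like nephritis. They were spleen at 12 weeks (12W spleen, before disease), spleen at 28 weeks (28W spleen, advanced disease) and kidney at 28 weeks (28W kidney, digested with collagenase). All cells were sorted for PD-1, CD44 and CD8, and no group was treated. The titles of the 28W spleen samples give 28 weeks while their age field gives 12, and the title was followed. Each group was listed as 4 samples but deposited as 1 table of means per cluster, with no map from cells to samples. The sample titles of a group differ only in an L-number suffix. The labels do not say whether they are separate mice or sequencing lanes of 1 library. Pooled means here only that a group came as 1 table. No spread between mice could therefore be given and no test was run. Each library held 6481 to 7135 cells in 10 to 12 clusters numbered by the authors, and 29937384 to 34742303 UMIs. Raised markers of B cells, myeloid cells, kidney tubule or red cells were found in 8 of the 33 clusters. The other 25 had a summed CD8 T cell list (CD8 and CD3 chains and receptor constant regions) of 3434 to 9189 CPM. Between 52 and 66 cell barcodes were shared by any pair of libraries. Unless stated otherwise, the intervals below are 95% limits that count each cell once, exact binomial ones for shares. They cover counting error only, with the number of cells taken as the number of draws, while the shares are over UMIs. Clusters gave 0.333 to 25.7 *Trbv* UMIs per cell, and some cells may have given none. The limits can therefore be too narrow even for counting error. Cells of 1 clone are also not independent draws, so the limits are too narrow for a comparison of mice. Where 3 values follow each other with no library named, they are those of 12W spleen, 28W spleen and then 28W kidney.

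A beta chain gene is assembled in the thymus when a V segment is joined to a D and a J segment, and the joint forms the third complementarity-determining region (CDR3), the part of the chain that most often touches the peptide. A T cell and its daughters keep 1 functional joint, so a segment's share of the beta chain transcripts reflects which receptors the sampled cells carry. Each cell is weighted by the *Trbv* UMIs it gave. Kidney cluster 11, for example, held 359 of the 7135 kidney cells but 7875 of the 51921 *Trbv* UMIs. A large clone raises the share of its segment as much as many small clones do.

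The segments lie on chromosome 6 (GENCODE M21, build GRCm38). *Trbv1* opens the locus at chr6:40891229-40891885, and 155455 bases separate it from *Trbv2* at chr6:41047340-41047995. *Trbv4* (chr6:41059394-41059886) and *Trbv5* (chr6:41062332-41062803) are neighbours. *Trbv13-1* (chr6:41116007-41116468) and *Trbv13-2* (chr6:41121396-41121832) start 5389 bases apart. *Trbv14* (chr6:41135145-41135616), *Trbv20* (chr6:41188273-41188977) and *Trbv29* (chr6:41271394-41271881) follow. *Trbv31* (chr6:41557691-41558452) lies alone on the minus strand, and the other 9 are on the plus strand. In the older Vβ names given by RefSeq, *Trbv13-1* is Vβ8.3, *Trbv13-2* is Vβ8.2, *Trbv1* is Vβ2 and *Trbv20* is Vβ15. GENCODE annotates all 10 as V genes, while RefSeq lists *Trbv29* as a V segment pseudogene.

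The germline 3′ ends are shown because they are where the segments contribute to the CDR3. Each sequence is from the GENCODE M21 transcripts, in the 5′ to 3′ direction of the gene. The last in-frame cysteine codon is in capitals and was taken as the conserved cysteine that opens the CDR3. *Trbv1* has another in-frame cysteine codon (tgc) shortly before it, so its capitals may not mark the conserved cysteine. The reference is C57BL/6J and not NZB or NZW.
Trbv13-1: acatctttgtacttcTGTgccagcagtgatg
Trbv13-2: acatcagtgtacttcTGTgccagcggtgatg
Trbv1: accttgtactgcaccTGCagtgcaga
Trbv4: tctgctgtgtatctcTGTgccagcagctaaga
Trbv31: tctggcttctacctcTGTgcctggagtct
Trbv14: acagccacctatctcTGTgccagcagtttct
Trbv5: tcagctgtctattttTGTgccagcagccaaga
Trbv20: agaggcttatatctcTGTggtgctaggga
Trbv2: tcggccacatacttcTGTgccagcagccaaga
Trbv29: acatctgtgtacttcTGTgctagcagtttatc
Between 8 and 14 germline bases followed the codon in capitals. The 8 bases of *Trbv1* are counted from the later of its 2 cysteine codons, so its end is not ranked. Among the other segments *Trbv20* and *Trbv31* had the shortest ends, with 11 bases each. *Trbv2* and *Trbv5* ended in the same letters from the cysteine codon onward.

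The V exons of *Trbv13-1* and *Trbv13-2*, the most used pair, are shown whole because reads of related segments can be split between them by the counting. Capitals mark the bases at which the pair differs.
Trbv13-1: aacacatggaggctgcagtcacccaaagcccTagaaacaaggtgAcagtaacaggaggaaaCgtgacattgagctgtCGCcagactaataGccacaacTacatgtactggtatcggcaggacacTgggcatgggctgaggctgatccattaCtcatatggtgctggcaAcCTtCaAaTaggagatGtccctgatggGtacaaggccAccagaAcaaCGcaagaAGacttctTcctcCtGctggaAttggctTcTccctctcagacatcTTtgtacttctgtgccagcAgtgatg
Trbv13-2: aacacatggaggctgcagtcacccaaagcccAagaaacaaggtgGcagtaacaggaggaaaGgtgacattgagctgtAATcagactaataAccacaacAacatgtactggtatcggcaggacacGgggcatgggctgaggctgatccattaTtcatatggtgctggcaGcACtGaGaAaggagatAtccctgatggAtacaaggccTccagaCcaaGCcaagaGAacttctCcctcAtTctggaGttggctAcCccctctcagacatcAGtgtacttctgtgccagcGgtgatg
The exons shared 261 of 294 bases, an identity of 88.8%. Over the 45 pairs among the 10 segments the median identity was 57.3%, and the next closest pair reached 66.7%. The third member of the family, *Trbv13-3*, matched *Trbv13-2* at 91.8% of the bases and held 0.912, 0.727 and 0.593% of the *Trbv* UMIs. The split between these 3 segments is therefore less certain than their sum.

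*Trbv* UMIs numbered 70605, 57350 and 51921, which is 10.2, 8.85 and 7.28 per cell. The 10 segments held 91.4, 92.4 and 94.3% of them. *Trbv13-1* took 21.0% of the *Trbv* UMIs in 12W spleen (20.0 to 21.96), 21.9% in the 28W spleen library (20.9 to 23.0) and 25.2% in that of the kidney (24.3 to 26.3). *Trbv13-2* took 21.1% (20.2 to 22.1), 19.0% (18.0 to 20.0) and 23.1% (22.1 to 24.1). The pair held 42.1, 40.9 and 48.4% of the *Trbv* UMIs in the same order. *Trbv13-2* ranked above *Trbv13-1* in 12W spleen, but their intervals overlapped there, while at 28 weeks *Trbv13-1* ranked first with no overlap in spleen and in kidney. The kidney order turned in other settings. *Trbv13-1* and *Trbv13-2* held 24.0 and 24.5% without clusters marked by other cell types, 23.6 and 24.1% without the cluster with the most UMIs per cell (cluster 11), and 23.1 and 23.3% with clusters weighted equally.

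*Trbv1* was the third segment of both spleens, with 12.5% (11.7 to 13.2) at 12 weeks and 13.1% (12.3 to 13.9) at 28 weeks, and the sixth of the kidney, with 6.39% (5.83 to 6.98). *Trbv4* held 8.02% (7.39 to 8.69), 9.88% (9.16 to 10.6) and 8.95% (8.30 to 9.64). *Trbv20* held 4.28% (3.81 to 4.78), 5.48% (4.94 to 6.06) and 8.76% (8.11 to 9.44), so that it moved from rank 8 in 12W spleen to rank 4 in the kidney. *Trbv4*, *Trbv20* and *Trbv14* in the kidney had overlapping intervals and no order among them.

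*Trbv14* held 6.76, 6.86 and 8.66% of the *Trbv* UMIs. *Trbv31* held 6.85, 6.19 and 5.15%. *Trbv5* held 4.95, 5.02 and 2.90%. In both spleens the intervals of *Trbv14* and *Trbv31* overlapped. *Trbv2* held 4.24, 3.61 and 3.70%, and *Trbv29* held 1.70, 1.33 and 1.40%. *Trbv29* was the last segment inside the list and *Trbv15* the first outside it, with 1.37, 1.61 and 0.743%. *Trbv15* therefore stood above *Trbv29* in 28W spleen, where their intervals overlapped (1.327 to 1.958 and 1.06 to 1.64). *Trbv16*, *Trbv3*, *Trbv12-2* and *Trbv13-3* came next, each with a mean share of 0.744 to 1.08% over the libraries.

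**Figure D1:**
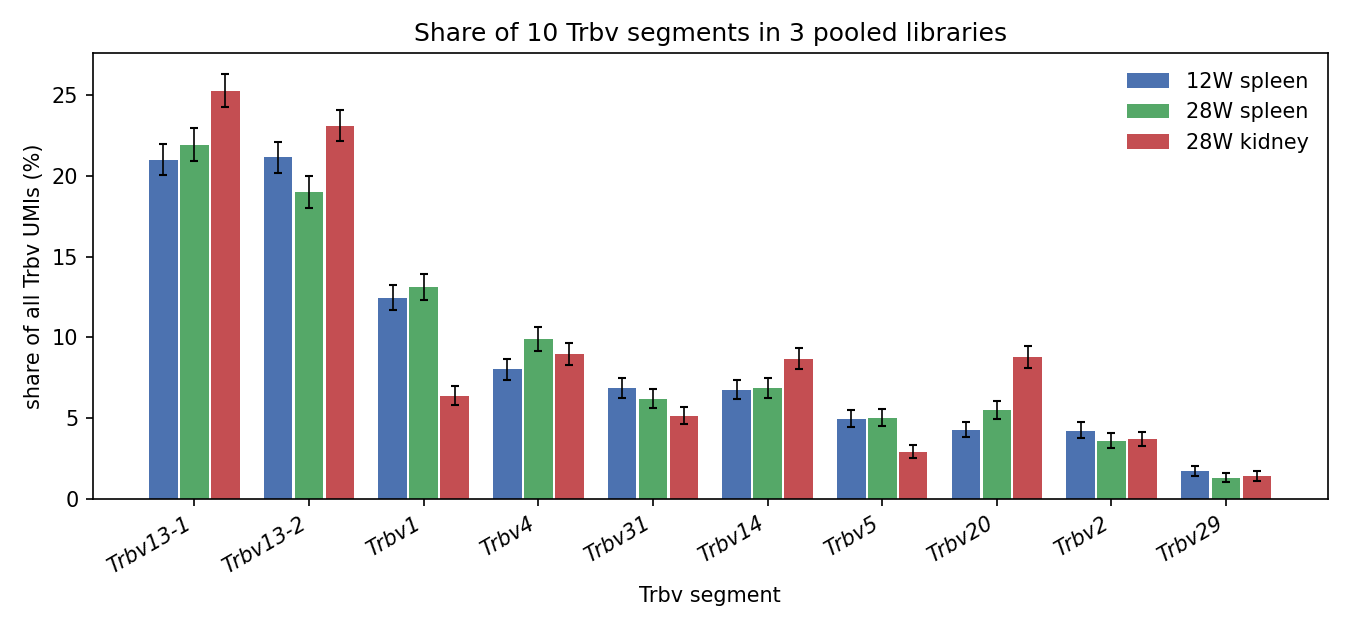
Share of all *Trbv* UMIs (%) held by each of the 10 segments, with 1 bar for each pooled library and error bars for the 95% interval that counts each cell once. *Trbv1* and *Trbv5* stand lower and *Trbv20* higher in 28W kidney than in either spleen, and *Trbv13-1* and *Trbv13-2* lead in all 3 libraries.

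The level of the segments was also read as CPM, UMIs scaled to 1000000 UMIs of a library. 5′ libraries count molecules at 1 end of the transcript, so CPM was not divided by length. All *Trbv* segments together stood at 2032, 1791 and 1734 CPM. *Trbv13-1* stood at 426, 393 and 438 CPM, and *Trbv29*, the lowest member, at 34.6, 23.7 and 24.4 CPM. Fewer T cells among the barcodes and less receptor RNA per T cell cannot be told apart in these sums.

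The first comparison asked whether segment use differed between pre-disease and advanced-disease spleen. No member passed 1.5-fold in share by age (0 of 10). Among all 18 *Trbv* segments with at least 0.5% in either spleen, 1 passed (5.56%), *Trbv17*, which is no member. 6 members were higher and 4 lower at 28 weeks. The highest ratio was that of *Trbv20*, 1.28-fold (log2 ratio 0.36, 0.14 to 0.57). *Trbv4* was 1.23-fold higher (0.30, 0.14 to 0.46), and *Trbv13-2* had a log2 ratio of -0.16 (-0.25 to -0.06). The intervals of the other 7 members included 0. Their bounds went from -0.76 for *Trbv29* to 0.23 for *Trbv5*. In CPM, 0 of 10 members passed 1.5-fold, beside 6.77% of all 7434 genes with at least 10 CPM in either spleen. The median log2 CPM ratio was -0.16 for the members and -0.10 for those genes.

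The second comparison set 28W kidney against 28W spleen, that is, the inflamed organ against the lymphoid organ at the same age. 3 of 10 members passed 1.5-fold in share, 2 lower and 1 higher in the kidney, beside 33.3% of the 18 *Trbv* segments with at least 0.5%. The members' share of calls was thus close to that of all segments. *Trbv1* had 0.488 of its splenic share, 6.39 against 13.1% (log2 ratio -1.04, -1.19 to -0.88). *Trbv5* stood at 2.90 against 5.02% (-0.79, -1.04 to -0.55). *Trbv20* stood at 8.76 against 5.48%, 1.60-fold higher (0.68, 0.50 to 0.86). Below 1.5-fold, *Trbv14* (0.34, 0.17 to 0.51), *Trbv13-2* (0.28, 0.19 to 0.38) and *Trbv13-1* (0.20, 0.12 to 0.29) were higher in the kidney and *Trbv31* was lower (-0.27, -0.47 to -0.07), each with an interval that did not hold 0. The intervals of *Trbv4*, *Trbv2* and *Trbv29* held 0.

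The lower shares of *Trbv1* and *Trbv5* did not rest on 1 cluster of the kidney. Without kidney cluster 1, the cluster with the most *Trbv* UMIs, the log2 ratios were -0.91 and -0.74, and without clusters that carried raised markers of other cell types they were -1.07 and -0.87. The ratio of *Trbv20* was 0.72 without the marked clusters, but it fell under 1.5-fold without kidney cluster 1 (0.54) and with every cluster weighted equally (0.43). In CPM the same 3 members passed, *Trbv1* (log2 ratio -1.08), *Trbv5* (-0.83) and *Trbv20* (0.63), beside 14.6% of the 7686 genes with at least 10 CPM. With CPM scaled by the median gene ratio, or with a pseudocount of 10 CPM, 2 of 10 passed. The 28W spleen library stood in both comparisons, so they are not independent.

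**Figure D2:**
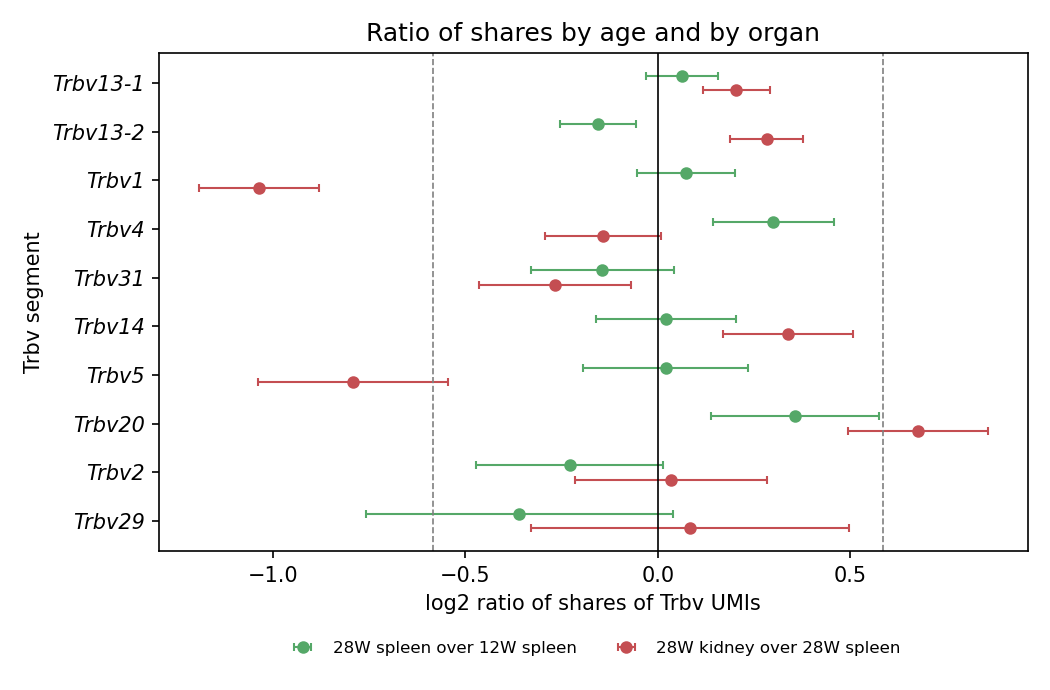
Log2 ratio of the share of *Trbv* UMIs for each segment, with 28W spleen over 12W spleen in green and 28W kidney over 28W spleen in red. Bars are 95% intervals that count each cell once, and dashed lines mark 1.5-fold. *Trbv1* (-1.04), *Trbv5* (-0.79) and *Trbv20* (0.68) lie past the lines by organ, and no segment does by age.

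Segment use was then followed through the 33 clusters. A cluster was set against the other clusters of its library, over clusters with at least 500 *Trbv* UMIs (10 in each library). The clusters were made from the same cells, so these values are a description. In 12W spleen 11 of 100 member-cluster pairs passed 1.5-fold (4 higher, 7 lower), beside 25% of the pairs of all segments with at least 0.5%. In 28W spleen 22 of 100 passed (6 higher, 16 lower), beside 34.4%. In 28W kidney 14 of 100 passed (5 higher, 9 lower), beside 24.7%. The members stood under the background in each library, and the pairs of the other segments, which had fewer UMIs, passed in 42.5, 50 and 46% of cases. In 4, 8 and 7 of the called pairs, respectively, the cell-counted intervals of the cluster and of the rest did not overlap.

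**Figure D3:**
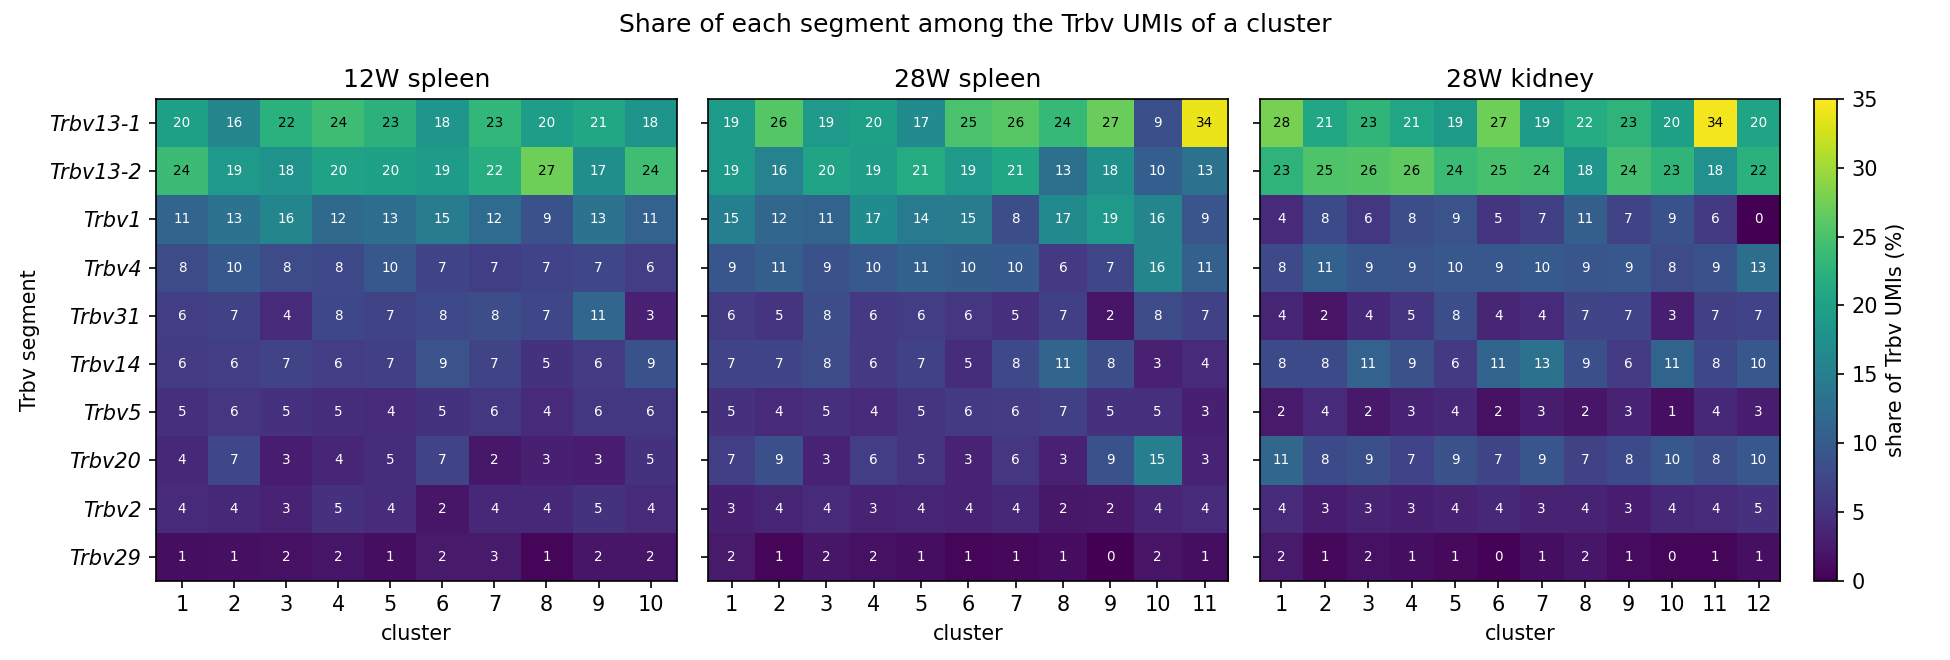
Share of the *Trbv* UMIs of a cluster (%, colour and rounded number) for the 10 segments (rows) in every cluster (columns) of each library. *Trbv13-1* reaches 34% in cluster 11 of 28W spleen and of 28W kidney, and *Trbv1* is darker across the kidney than across the spleens.

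*Trbv13-1* or *Trbv13-2* was the leading segment in 32 of 33 clusters, 16 each. The exception was cluster 10 of 28W spleen, where *Trbv1* led with 15.9% of 315 *Trbv* UMIs and *Trbv13-1* had 8.57%. This cluster had 1.28 *Trbv* UMIs per cell, and its B cell list stood at 4348 CPM and its myeloid list at 1716 CPM, against 197 and 30.8 CPM in the other clusters.

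*Trbv13-1* went from 16.1% in cluster 2 (14.0 to 18.4) to 24.1% in cluster 4 (21.4 to 26.8) of 12W spleen. Neither cluster passed 1.5-fold against the others. In 28W spleen it went from 16.9% in cluster 5 to 34.0% in cluster 11 (27.7 to 40.7), 1.56-fold the share in the other clusters. Cluster 11 had 1288 UMIs per cell and 6.64% mitochondrial UMIs, and its share rested on 248 of 729 *Trbv* UMIs. In 28W kidney *Trbv13-1* went from 19.1% in cluster 5 to 34.3% in cluster 11 (29.4 to 39.4), against 23.6% in the other clusters. Kidney cluster 11 had the highest proliferation list (*Mki67*, *Top2a*, *Stmn1*, *Pclaf* and *Ube2c*), 4740 CPM, and the most *Trbv* UMIs per cell of the kidney, 21.9. Its erythroid list also stood apart, at 1809 against 87.1 CPM in the other clusters, and the part of this in the result was not tested. The proliferation-rich clusters of the spleens held 18.1% (cluster 10 at 12 weeks, 13.1 to 24.0) and 24.99% (cluster 6 at 28 weeks, 21.4 to 28.9). Without kidney cluster 11 the organ log2 ratio of *Trbv13-1* was 0.11 in place of 0.20.

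*Trbv13-2* moved in the opposite direction in both of these clusters. It had its lowest kidney share in cluster 11, 17.7% (14.0 to 22.2), and 13.2% in cluster 11 of 28W spleen. Its highest share was 27.3% in 12W spleen cluster 8 (22.4 to 32.7), a cluster with 928 UMIs per cell and 8.98% mitochondrial UMIs. No cluster passed 1.5-fold for *Trbv13-2* in any library. Shares sum to 100% within a cluster, so a high value of 1 segment lowers the others.

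*Trbv20* was the member whose share differed most between clusters in 12W spleen, with a coefficient of variation of 42.8%. It held 7.43% (5.96 to 9.12) of cluster 2 and 7.23% (5.06 to 9.77) of cluster 6, against 2.26% (0.93 to 4.19) of cluster 7. Cluster 2 had the highest cytotoxic list (*Gzmk*, *Gzma*, *Gzmb*, *Nkg7*, *Ccl5*, *Cxcr6* and *Prf1*) of 12W spleen, 9602 CPM, while cluster 6 stood at 1085 CPM. In 28W spleen the highest shares with enough UMIs were 8.78% (5.46 to 12.7) in cluster 9 and 8.55% (6.93 to 10.45) in cluster 2. These clusters had the highest cytotoxic lists of that library, 20885 and 14449 CPM. The lowest splenic shares at 28 weeks were 3.27% in cluster 8, 3.41% in cluster 6, 3.43% in cluster 11 and 3.47% in cluster 3, with cytotoxic lists of 3525, 1451, 3850 and 1430 CPM. Cluster 7, with a cytotoxic list of 1307 CPM, held 5.54%. Not every splenic cluster is listed here, and a relation of the *Trbv20* share to the cytotoxic level was not tested.

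In 28W kidney *Trbv20* was higher and more even, from 6.87% in cluster 8 to 11.5% (9.44 to 13.7) in cluster 1, and no cluster passed 1.5-fold. All 10 kidney clusters with enough UMIs lay above the median of the 28W spleen clusters, 5.38%, and 3 lay above the highest of them. The kidney cluster with the highest cytotoxic list, cluster 6 at 21006 CPM, held 7.30%, below kidney clusters 1 and 3 with 11.5 and 8.51% at 16259 and 15982 CPM. Among these 3 kidney clusters the share did not follow the cytotoxic level. Over whole libraries the cytotoxic list stood at 1973, 5096 and 10920 CPM.

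**Figure D4:**
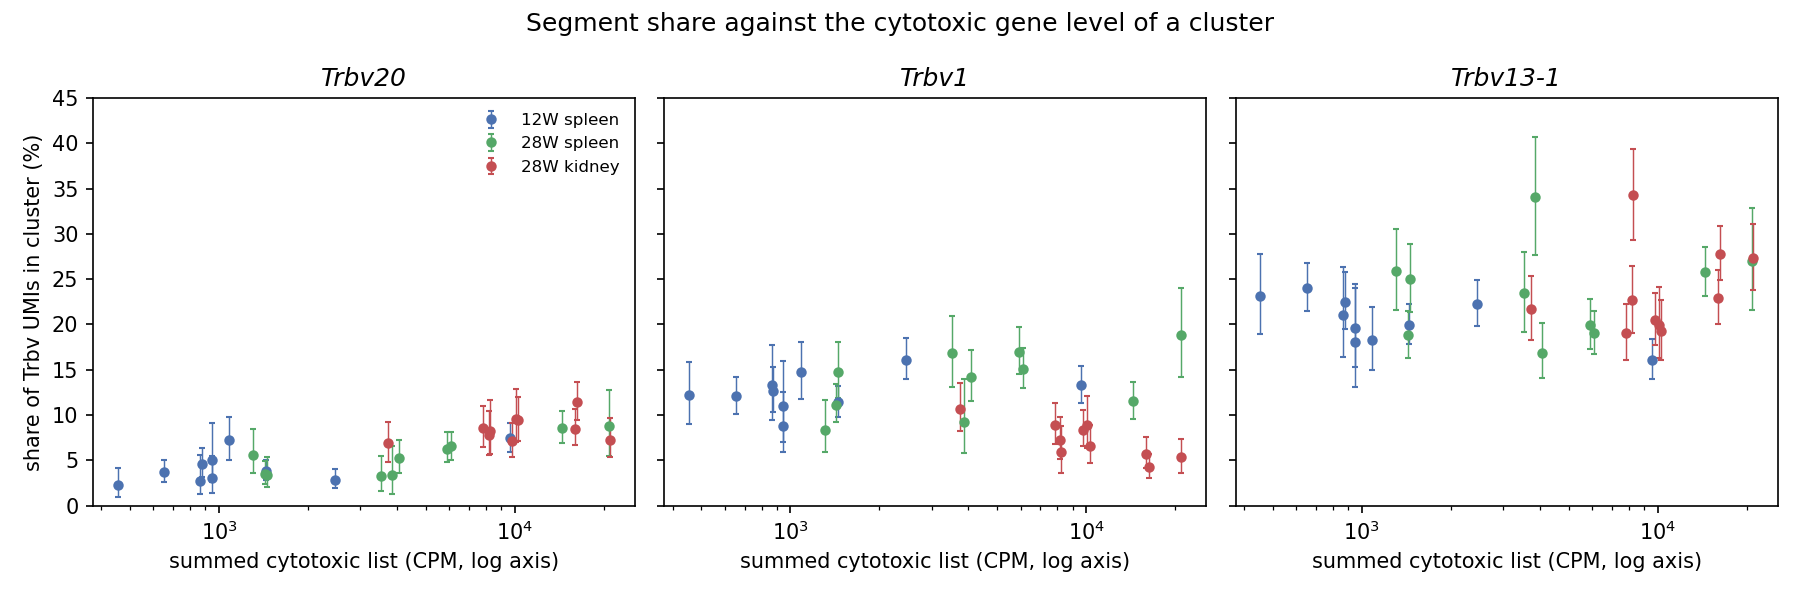
Share of *Trbv20*, *Trbv1* and *Trbv13-1* among the *Trbv* UMIs of a cluster (%) against the summed CPM of the cytotoxic list (log axis), with 1 point for each cluster with at least 500 *Trbv* UMIs and bars for the interval that counts each cell once. *Trbv20* lies at 6.87 to 11.5% in the kidney clusters and mostly lower in the spleens, with 7.23% in 12W spleen cluster 6 (1085 CPM) as an exception on the left. *Trbv1* lies at 4.27 to 8.93% in the 9 kidney clusters with the higher cytotoxic levels.

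*Trbv1* showed the other side of the organ difference. Its share went from 8.78 to 16.1% over the 12W spleen clusters. At 28 weeks it went from 8.37 to 18.8% over the splenic clusters but from 4.27 to 10.6% over those of the kidney. All 10 kidney clusters lay below the splenic median of 14.5%, and 7 lay below the lowest splenic cluster. The clusters with the highest cytotoxic lists of their libraries held 18.8% (28W spleen cluster 9, 14.2 to 24.1) and 5.36% (kidney cluster 6, 3.65 to 7.40). Cluster 9 was also the splenic cluster with the highest *Trbv1* share and rested on 178 of 945 *Trbv* UMIs. This is 1 pair of clusters, and a relation of the share to the cytotoxic level was not tested. The kidney clusters with the lowest shares were cluster 1 with 4.27% (3.005 to 5.75) and cluster 6. The highest was cluster 8 with 10.6% (8.20 to 13.6), in which the B cell list stood at 2675 CPM. In kidney cluster 12, with a myeloid list of 10566 CPM, *Trbv1* had 0 of 357 *Trbv* UMIs (1.94 per cell). This allows a share of up to 1.98% if all 184 cells of the cluster are taken as draws. The CD8 T cell list of this cluster stood at 1459 CPM, against 6503 CPM in the whole kidney library. Some of its cells may therefore have given no *Trbv* UMI, and the limit would then be too low. The part of these markers in the values was not tested.

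*Trbv5* held 4.26 to 5.69% of every 12W spleen cluster, the smallest relative spread of all members in that library (11.1%). At 28 weeks its range was 3.02 to 6.70% for the spleen but 1.38 to 3.90% for the kidney. All 10 kidney clusters lay below the splenic median of 4.99%, and 6 lay below the lowest splenic cluster. All 10 kidney clusters of *Trbv4*, which lies beside *Trbv5* in the locus, also lay below their splenic median of 9.99%, but 0 lay below the lowest splenic cluster. *Trbv4* went from 7.74 to 9.92% over the kidney clusters and from 5.80 to 10.9% over those of 28W spleen.

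*Trbv31* varied in all 3 libraries. It held 11.5% (7.95 to 15.7) of 12W spleen cluster 9 against 3.24% (1.35 to 6.75) of cluster 10, and 8.28% of 28W spleen cluster 3 against 2.01% (0.64 to 4.50) of the cytotoxic cluster 9. In the kidney it held 8.36% (6.35 to 10.8) of cluster 5, and 3.56% (2.44 to 4.98) of cluster 1. *Trbv14* was highest in kidney cluster 7, 13.1% (10.4 to 16.0), whose kidney tubule list stood at 4716 CPM, and in 28W spleen cluster 8, 11.5% (8.40 to 15.1), whose erythroid list stood at 40824 CPM. In the unmarked kidney clusters 3, 6 and 10 it held 11.05, 11.2 and 11.3%.

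*Trbv2* went from 2.101 to 5.19% over all clusters with enough UMIs. It was past 1.5-fold lower in 1 cluster of 12W spleen (cluster 6) and in 2 of 28W spleen, and in 0 of the kidney. *Trbv29*, the rarest member, had the widest relative spread at 28 weeks, 64.4% in spleen and 57.6% in kidney. It held 2.50% (1.68 to 3.68) of 28W spleen cluster 1 and 2.48% (1.54 to 3.68) of kidney cluster 1, both 2-fold or more over the other clusters (2.13 and 2.27). In 28W spleen cluster 9 it had 0 of 945 *Trbv* UMIs, which allows a share of up to 1.43% counting each cell once, and in kidney cluster 6 it had 16 of 4194 (0.381%).

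The evenness of use was summarised by the effective number of segments, the number of equally used segments that would give the same sum of squared shares. It was 7.87 (7.80 to 7.94 over UMIs), 7.86 (7.79 to 7.93) and 6.67 (6.60 to 6.74). These limits treat every UMI as an independent draw, while a cell gave 7.28 to 10.2 *Trbv* UMIs on average. They are therefore too narrow, also for the difference between kidney and spleens. Clusters spanned 7.12 to 9.19 at 12 weeks, 6.06 to 8.49 for the older spleen and 5.53 to 8.18 for the kidney. These ranges are over clusters with at least 500 *Trbv* UMIs, among which the highest was 12W spleen cluster 2, the cytotoxic cluster of that library. The lowest were kidney cluster 11 (5.53) and kidney cluster 6 (5.90). The lowest values in 28W spleen were those of cluster 11 (6.06) and of the cytotoxic cluster 9 (6.15), which had few *Trbv* UMIs, 729 and 945. The cluster with the highest cytotoxic list was thus the most even in 12W spleen and among the least even at 28 weeks.

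**Figure D5:**
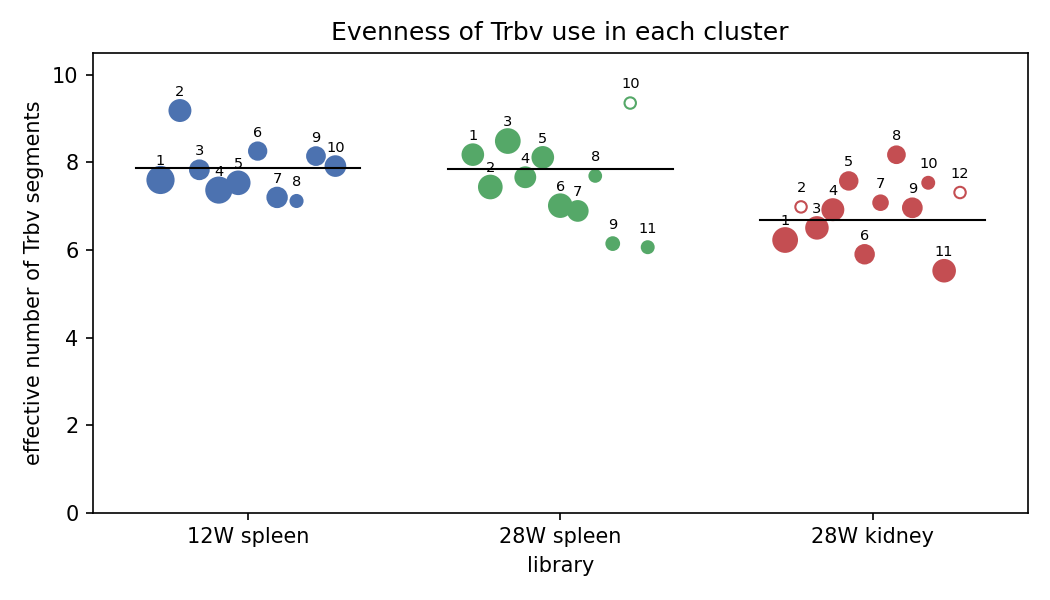
Effective number of *Trbv* segments (vertical axis) in each numbered cluster of the 3 libraries. Point area grows with the number of *Trbv* UMIs, open points have under 500, and the lines are the values of the whole libraries (7.87, 7.86 and 6.67).

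As no D or J segments were analysed here, the alpha chain was used to see which *Trav* segments followed the members. Over the 26 clusters with at least 500 *Trbv* and 500 *Trav* UMIs, the *Trav* segment whose share was most like that of *Trbv20* was *Trav5-4* (Pearson r = 0.79), out of 43 segments. *Trav13n-4* was most like *Trbv5* (0.67) and *Trav13-1* most like *Trbv29* (0.59). The best of 43 values is high by its choice, the clusters of a library share cells' source and depth, and *Trav* copies of near-identical sequence can be confused, so these are descriptions.

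The genes that carry the beta chain to the surface were read beside the segments. *Trbc1* and *Trbc2* encode the constant regions of the beta chain, and *Trbc1* took 16.5, 17.5 and 17.5% of their summed UMIs. *Trbc2* stood at 548, 444 and 418 CPM, and *Trac*, the alpha chain constant region, at 275, 224 and 282 CPM. Of the 9 genes of the receptor complex and CD8 coreceptor, 0 passed 1.5-fold by age and 2 by organ, both higher in the kidney. Beside them, 6.77% of all genes with at least 10 CPM passed by age and 14.6% by organ. The 2 genes were *Cd3g*, a CD3 signalling chain (907.6 to 1397 CPM, log2 ratio 0.62), and *Cd8a*, the CD8 alpha chain (488 to 738 CPM, 0.59). *Cd8a* lay just past the threshold of 0.58. *Dntt*, a recombination gene that adds bases at the joints, had 24, 12 and 1 UMIs.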

How the data were processed

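Single-cell RNA was sequenced from sorted cells and listed as 12 samples, 4 in each of 3 groups, which may be mice or sequencing lanes. Per the labels, the authors used Cell Ranger 2.1.1 and R 3.6.1 with GRCm38. The deposited tables hold normalized mean counts for each gene and cluster, scaled by the authors to 1 total in all columns of a library, and a cluster number for each barcode. How doublets were treated is not given in the sources used here, and none were removed. In addition, 66 columns of the authors' fold changes and adjusted p-values between clusters were left unused, as they hold their own comparisons.

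Every mean was a whole multiple of 1 step per column (tolerance 0.001), which gave back whole UMIs. Library sums, shares, CPM and exact limits were computed with Python 3.11.15, pandas 2.3.3 and scipy 1.17.1. For a share, the interval that counts each cell once takes the number of cells as the number of draws. Ratios of CPM used a pseudocount of 1 CPM. Log2 share ratios had a normal approximation on the cell numbers. The recovery of whole UMIs was tested on simulated data, as were CPM calls for 2-fold changes in genes with high counts. Calls on genes with low counts, on shares and on clusters were not part of that test. V exons were aligned with Biopython 1.88. A marker list counted as raised in a cluster at 5 times its level in the other clusters and at least 500 CPM. With 1 pooled library per group no p-value was computed. The members, lists and thresholds were chosen with earlier results of these data known. Genes were named by rule: the 10 members, the 5 next segments by mean share, any segment above the lowest member, the 3 closest *Trav* segments and the receptor lists. *Trbv17* was named after its value was seen.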

Additional observations from a re-analysis of the deposited data

How the results depend on the processing

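No paired analysis was possible because each group was 1 pooled table. The summed share of the members was 91.0, 92.1 and 92.9% (both spleens by age, then kidney) with each cluster weighted equally, and 91.9, 92.9 and 94.5% over segments annotated as V genes. It was 90.8 and 93.7% in 12W spleen and 28W kidney from deposited means averaged over cells, 91.6 and 93.6% there without the cluster with the most UMIs per cell, and 93.8% in 28W kidney without marked clusters. The effective number was 7.98, 7.98 and 7.05 with equal weights, and 4.48, 4.62 and 3.67 with *Trbv13-1*, *Trbv13-2* and *Trbv13-3* as 1 segment. It was 7.96 and 6.79 in 12W spleen and 28W kidney from deposited means, 8.01 and 6.81 in 28W spleen and 28W kidney without the deepest cluster, and 7.78 in both spleens over V genes. In each of these settings it was lower in the kidney than in either spleen. At a log2 ratio of 0.32 in place of 0.58 (1.5-fold), 2 members passed by age, and at 2-fold 1 passed by organ in share and 1 in CPM. Member-cluster pairs in the same library order were 24, 37 and 44 at that lower log2 threshold, 3, 6 and 5 at 2-fold, and 4, 8 and 7 with intervals apart, and 10 in 28W spleen over clusters with at least 2000 *Trbv* UMIs. No share over all segments is given beside the counts in these other settings, so they are not read as a result about the members. Of 150 values of single shares, 143 stayed inside the interval that counts each cell once. Of the log2 share ratios, 49 of 50 by age and 64 of 70 by organ did. The direction was kept in 46 of 50 by age and 63 of 70 by organ. No ratio past 1.5-fold changed sign, but by age no member was past 1.5-fold. Leaving out kidney cluster 11 or cluster 1 was chosen after seeing the data. Mice could not be separated in any comparison.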
